A study of Mus musculus with 6 samples.

Results

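The genes described here make, attach and remove sialic acid, the sugar that carries the epitope of the GL7 antibody used to mark germinal center (GC) B cells. 8 genes were chosen by name from the 27179 in the count table, by a rule with no threshold on a measured value, namely Cmah, Cmas, St6gal1, St3gal1, St3gal2, St3gal6, Neu1 and Neu3. RNA-seq was performed on splenic GC B cells of C57BL/6 background mice that were wild type (WT) or lacked the IL-21 receptor (Il21r-/-), on days 7, 10 and 14 after immunization with NP-KLH in alum, with 1 library per genotype and day and 6 in all. All 6 libraries came from immunized mice, and no library of resting B cells was part of the set. According to the methods, the cells were NP-binding, IgG1+, B220+ and CD38-, negative for CD138, IgM, IgD and Gr1, and were not selected by GL7 staining. By the study's general methods, experiments of this kind used bone marrow chimeras, in which irradiated Ly5.1 hosts had received WT or Il21r-/- bone marrow. In such chimeras all cells formed from the donor marrow, T cells included, carry the donor genotype while the remaining host cells have the receptor, so an effect inside the B cell and an effect through other marrow-derived cells cannot be told apart. The series describes each library as coming from its own mouse, while the methods give more mice per genotype than libraries. A supplementary legend names more than 1 mouse per genotype for the day 7 sort. These sources differ, and the number of mice behind a library was therefore not known. The methods also name more than 1 independent immunization and do not say which libraries came from which.

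Sialic acids are the terminal sugars of many cell surface glycans. The enzyme CMAS couples N-acetylneuraminic acid (Neu5Ac) to CMP, CMAH converts this activated form to N-glycolylneuraminic acid (Neu5Gc), sialyltransferases attach either form to galactose or related sugars, and sialidases take it off again. In mice, resting B cells carry mostly Neu5Gc, and the GL7 antibody binds alpha2,6-linked Neu5Ac, which becomes exposed on GC B cells when Cmah is repressed.

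The libraries held 21353438 to 27435124 counts on genes. Il21r, which checks the labels, was at 105.8 to 127.6 CPM (counts scaled to the size of the library) in the 3 Il21r-/- libraries and at 246.6 to 345.8 CPM in the 3 WT libraries. Among 12 GC B cell markers, Bcl6 was at 145.2 CPM or more in every library. Pax5 alone of the 12 was called for genotype, higher in Il21r-/-, and Gcsam alone was called for day, rising. Of 12 markers of B cells outside the GC, Ighd was at 0.983 to 1.68 CPM, while the summed level of the list was 1485, 907 and 665 CPM in WT and 1786, 1572 and 1062 CPM in Il21r-/- on days 7, 10 and 14. Sdc1, 1 of 8 plasma cell genes, was at 0.361 to 0.854 CPM. The summed level of the 8 plasma cell genes was 3729 to 5319 CPM, with Jchain at 2283 to 3314 CPM and Mzb1 at 1056 to 1641 CPM. Of the 6 plasma cell genes tested, 2 were called higher in WT and 1 in Il21r-/-. Cd3e was at 0 to 0.0937 CPM and Csf1r at 0.305 to 2.57 CPM. The summed level was 88.6 to 123.0 CPM for 11 T cell genes, nearly all of it Lck, 2.89 to 12.0 CPM for 10 myeloid genes and 4.95 to 34.0 CPM for 7 erythroid genes. Among the 3 T cell genes tested, Cd5 was called higher in Il21r-/- and Thy1 was called lower on later days. All 8 sialic acid genes passed the filter on low values and were among the 11005 genes tested.

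Compared by level per length, in RPKM (CPM divided by gene length in kilobases), the 8 genes spanned a wide range. St6gal1, which attaches sialic acid in alpha2,6 linkage to the galactose of N-glycans, had a median of 143.2 RPKM over the 6 libraries, with a range of 108.5 to 169.9 RPKM, and its median lay above that of 93.0% of the genes tested. St3gal6, an alpha2,3-sialyltransferase acting on galactose at the ends of glycan chains, followed with a median of 33.6 RPKM and a range of 13.1 to 61.2 RPKM. Cmas had a median of 23.5 RPKM and the lysosomal sialidase gene Neu1 one of 12.4 RPKM. Lower in the order came St3gal2 and St3gal1, the alpha2,3-sialyltransferases of O-glycan cores, with medians of 5.69 and 3.90 RPKM, then Cmah with 3.01 RPKM and Neu3, the sialidase of the plasma membrane that acts on gangliosides, with 0.937 RPKM. The ranges of the neighbours St3gal6 and Cmas, St3gal2 and St3gal1, and St3gal1 and Cmah overlapped, whereas St6gal1, Neu1 and Neu3 did not overlap with their neighbours in the order. By this measure Cmah was one of the least abundant of the 8 transcripts, above 24.1% of the genes tested, at 1.69 to 5.15 RPKM. The measure rests on gene length, which was 9755 bases for Cmah, 1593 for St3gal6 and 1760 for Cmas. In CPM on day 7 in WT, Cmah was at 50.2, St3gal6 at 48.2 and Cmas at 42.4. On day 14 in WT they were at 16.5, 20.9 and 40.2 CPM.

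The full set of mouse sialyltransferases gave the same leading gene. Of 20 such genes, 5 had no count in any library and 14 had a median above 0. St6gal1 made up 55.2 to 63.2% of the summed RPKM of the 20 genes, and St3gal6 made up 7.66 to 20.2%. The share of St3gal6 was 12.2, 12.2 and 7.66% in WT and 20.2, 14.4 and 15.9% in Il21r-/- on days 7, 10 and 14. St8sia4, a polysialyltransferase, was next with 6.23 to 11.0%. St6gal2, the other gene for transfer in alpha2,6 linkage to galactose, was among those with no count.

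**Figure D1:**
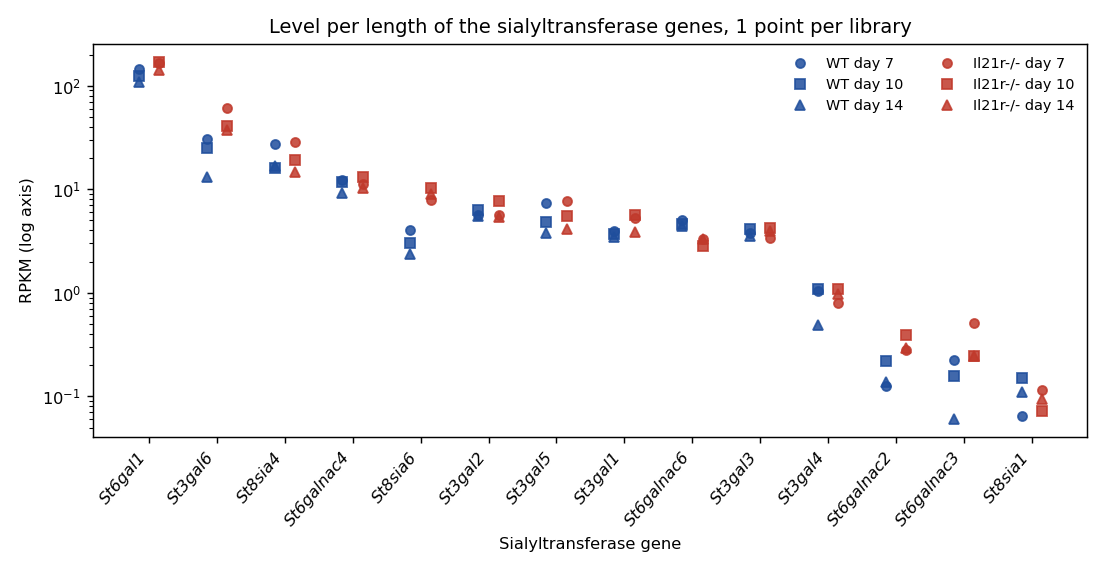
RPKM on a log axis for the 14 sialyltransferase genes with a median above 0, 1 point per library, blue for WT and red for Il21r-/-, with the day given by the shape. St6gal1 lay above every other gene in all 6 libraries, at 108.5 to 169.9 RPKM.

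Cmah (Entrez 12763, chr13:24327404-24477289 in mm10) had the steepest slope over days of the 8 genes. Its level was 50.2, 27.6 and 16.5 CPM on days 7, 10 and 14 in WT. In Il21r-/- it was 43.5, 31.2 and 18.1 CPM on the same days. Both genotypes were lower on each later day, every day 14 library lay below every day 10 library, and every day 10 library lay below both day 7 libraries. On day 14 the level was 32.8% of that on day 7 in WT and 41.7% in Il21r-/-. In the fit with genotype and a linear effect of day, Cmah fell by 0.20 (SE 0.021) per day on the log2 scale, which gave a log2 change of -1.43 (95% interval -1.77 to -1.10), or a 2.70-fold decrease, over the 7 days from day 7 to day 14 (adjusted p = 0.00487, edgeR quasi-likelihood test). The call was lost without the WT library of day 7 (adjusted p = 0.0708) and without that of day 14 (adjusted p = 0.0956), and held under the other 10 of 12 alternatives, with adjusted p-values from 1.35e-13 to 0.0956 over all 12.

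Between the genotypes, the level of Cmah overlapped. The level in Il21r-/- was 86.5% of that in WT on day 7, 113% on day 10 and 110% on day 14. The log2 difference over the 3 days, WT minus Il21r-/-, was -0.03 (95% interval -0.30 to 0.24; adjusted p = 0.915), so a difference of more than 0.30 in either direction lay outside the interval of this fit. The slopes over day were not distinguishable between the genotypes (difference of -0.05 per day, 95% interval -0.15 to 0.06; adjusted p = 1).

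**Figure D2:**
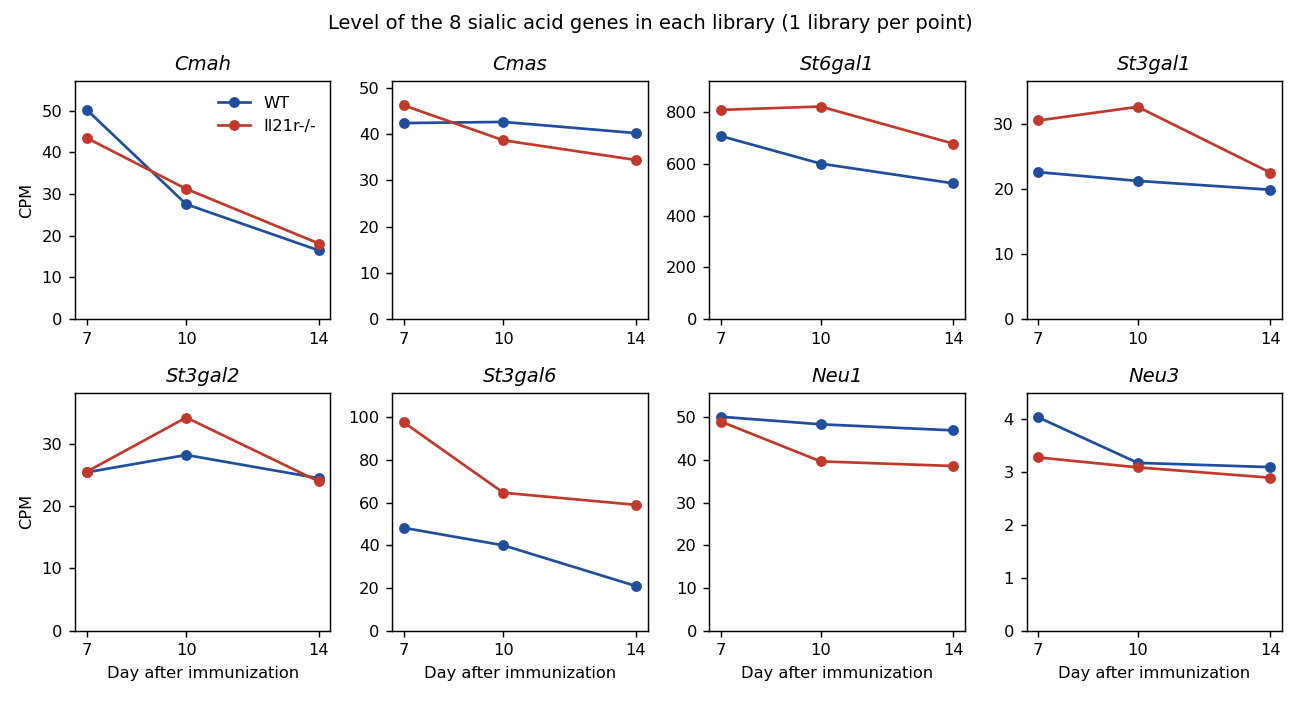
CPM of the 8 sialic acid genes against the day after immunization, 1 point per library, WT in blue and Il21r-/- in red, with lines that join the days of a genotype. Cmah fell from 50.2 and 43.5 CPM on day 7 to 16.5 and 18.1 CPM on day 14 with the lines crossing, and St3gal6 lay higher in Il21r-/- on all 3 days.

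The genes whose pattern over the 6 libraries lay closest to that of Cmah were Vim, Etv5, Bank1, Lpar6 and Spns3. Closeness was the root mean square difference in log2 CPM after centring each gene on its own mean, and it was 0.10 for Vim, 0.13 for Etv5 and Bank1, 0.14 for Lpar6 and 0.15 for Spns3. The median over all genes tested was 0.62. The named genes were picked for the smallest distances, so their place below this median was fixed by the choice. Vim, the gene of the intermediate filament vimentin, was at 269.5, 144.6 and 95.2 CPM in WT and at 251.9, 146.9 and 97.7 CPM in Il21r-/- on days 7, 10 and 14. Bank1, which encodes a B cell scaffold protein, also stood among the 12 markers of B cells outside the GC, of which 9 fell with day and 0 rose (3.36% of all genes were called lower on later days). Cd38, another of them, was at 26.6, 5.98 and 2.29 CPM in WT and at 21.3, 11.7 and 3.65 CPM in Il21r-/-. The part of these markers in the level of Cmah was not tested. In bulk RNA, fewer cells of a type and less RNA per cell cannot be told apart.

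St3gal6 (Entrez 54613, chr16:58469742-58524260) was higher in Il21r-/- on every day. In WT its level was 48.2, 40.0 and 20.9 CPM on days 7, 10 and 14. In Il21r-/- it was 97.5, 64.6 and 58.9 CPM. The lowest Il21r-/- library, on day 14, lay above the highest WT library, on day 7. Over days, the mean was 36.4 ± 14.0 CPM in WT and 73.7 ± 20.8 CPM in Il21r-/- (SD, n = 3 days each). The level in Il21r-/- was 202, 162 and 282% of that in WT on days 7, 10 and 14. Over the 3 days the log2 difference, WT minus Il21r-/-, was -1.06 (SE 0.145, 95% interval -1.39 to -0.73), a 2.09-fold higher level in Il21r-/- (adjusted p = 0.00483). This call held under all 12 alternatives, with differences from -1.15 to -0.87 and adjusted p-values up to 0.0486.

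By single day, St3gal6 passed the likelihood ratio test on day 7 (-1.02, SE 0.275, adjusted p = 0.0265) and on day 14 (-1.49, SE 0.282, adjusted p = 3.14e-05). On day 10 the difference was -0.69 (SE 0.277, adjusted p = 0.216) and did not pass, whereas it passed with the spread estimated from the replicate block (adjusted p = 0.0333), with a linear day term (-0.88, adjusted p = 0.00657) and without Il21r-/- on day 10 in the estimate of the spread (adjusted p = 0.0212), over a range of 0.00657 to 0.344 in 12 alternatives. The day 7 call was lost with the DESeq2 Wald test, which also used a linear day term (adjusted p = 1). It was lost as well when the WT library of day 7 was left out of the estimate of the spread (adjusted p = 0.0778), over a range of 0.000181 to 1 in 12 alternatives. St3gal6 also fell with day, by 0.13 (SE 0.025) per day or 1.92-fold over the 7 days (adjusted p = 0.0255). This trend no longer passed without the WT library of day 7 (adjusted p = 0.233), the Il21r-/- library of day 7 (0.0997) or the WT library of day 14 (0.292), and passed under the other 9 of 12 alternatives, the lowest adjusted p being 9.69e-05. The day trends of the genotypes were not distinguishable (difference of -0.07 per day, 95% interval -0.19 to 0.04; adjusted p = 1).

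In GENCODE, 1603 of the 6172 exon bases of St3gal6 are shared with Dcbld2, a gene on the opposite strand. The counts used RefSeq models instead, in which St3gal6 had a length of 1593 bases. In RefSeq coordinates Dcbld2 ends at base 58469745 and St3gal6 spans 58469742 to 58524260. The strand setting of the counting is not given in the sources used here. Dcbld2 itself had 27 to 81 counts in a library, against 447 to 2234 for St3gal6. The markers of B cells outside the GC moved in the same 2 directions as St3gal6. 7 of the 12 were higher in Il21r-/- (4.52% of all genes) and 1, Ighm, was higher in WT. Fcer2a, the gene of CD23, was at 392.2, 219.1 and 154.2 CPM in WT and at 807.6, 789.4 and 510.5 CPM in Il21r-/-. Ighd, the marker of naive B cells, was at 0.983 to 1.68 CPM with ranges that overlapped between the genotypes. The part of these cells in the difference in St3gal6 was not tested.

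**Figure D3:**
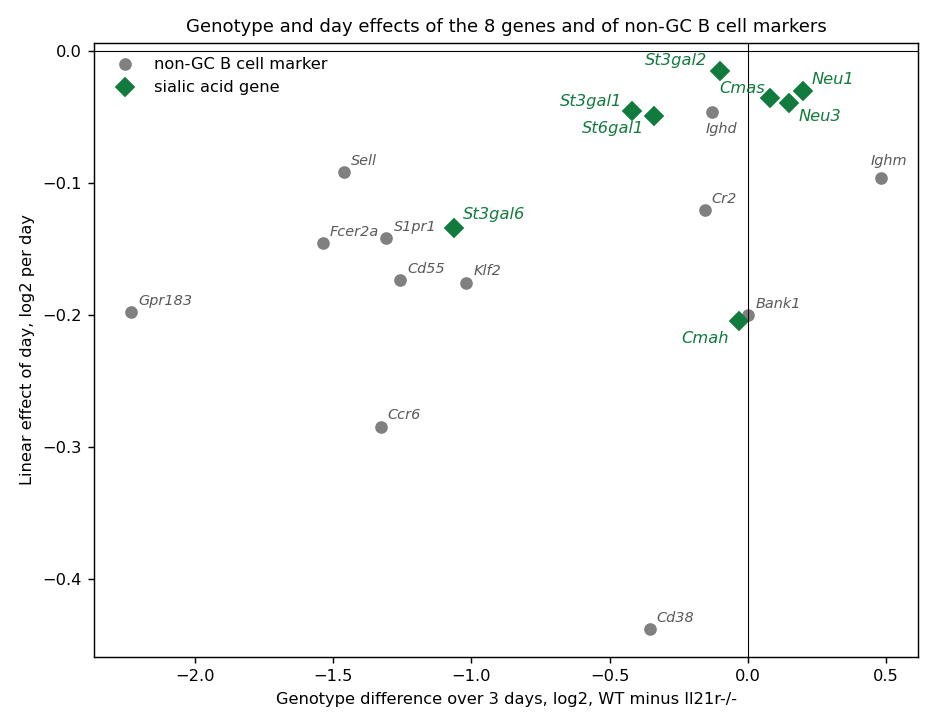
Genotype difference over the 3 days (WT minus Il21r-/-, log2) on the x axis against the linear effect of day (log2 per day) on the y axis, for the 8 sialic acid genes as green diamonds and the 12 markers of B cells outside the GC as gray circles. Cmah lay beside Bank1 near a genotype difference of 0, and St3gal6, at -1.06 and -0.13, lay near S1pr1 and Klf2. Bank1 was already among the genes closest in pattern to Cmah over the same libraries, so its place beside Cmah adds no further result.

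The sequences before the starts of Cmah and St3gal6 are shown because these were the 2 of the 8 genes that fell with day. RefSeq windows for GRCm38.p6, the assembly behind mm10, were found for 6 of the 8 genes, with 10 windows in all; St3gal1 and St3gal2 had no entry. Each line gives the 250 bases before an annotated start, 5′ to 3′ on the strand of the gene, and capitals mark the GC box GGGCGG on either strand. The Cmah windows are chr13:24327154-24327403 and chr13:24414872-24415121 on the plus strand. The St3gal6 windows are chr16:58524254-58524503 and chr16:58523427-58523676 on the minus strand.
Cmah start 1: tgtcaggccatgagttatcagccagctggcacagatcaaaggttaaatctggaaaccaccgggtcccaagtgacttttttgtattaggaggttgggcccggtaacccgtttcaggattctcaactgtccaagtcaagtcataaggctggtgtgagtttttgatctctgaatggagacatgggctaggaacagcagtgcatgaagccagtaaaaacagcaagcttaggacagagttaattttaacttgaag
Cmah start 2: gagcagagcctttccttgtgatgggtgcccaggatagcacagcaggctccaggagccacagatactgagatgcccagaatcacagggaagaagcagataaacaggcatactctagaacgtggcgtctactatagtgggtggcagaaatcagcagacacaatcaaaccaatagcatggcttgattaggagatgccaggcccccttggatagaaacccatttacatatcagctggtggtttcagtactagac
St3gal6 start 1: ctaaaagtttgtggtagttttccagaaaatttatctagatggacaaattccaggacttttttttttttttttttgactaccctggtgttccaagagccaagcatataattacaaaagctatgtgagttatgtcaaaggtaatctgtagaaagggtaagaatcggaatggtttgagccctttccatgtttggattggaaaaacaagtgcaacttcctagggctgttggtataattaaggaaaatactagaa
St3gal6 start 2: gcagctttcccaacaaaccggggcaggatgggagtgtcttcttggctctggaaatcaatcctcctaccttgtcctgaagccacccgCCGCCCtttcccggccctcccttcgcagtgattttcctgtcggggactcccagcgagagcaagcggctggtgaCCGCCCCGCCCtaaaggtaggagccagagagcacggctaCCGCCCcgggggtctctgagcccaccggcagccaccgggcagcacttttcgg
The second St3gal6 window held 4 GC boxes, of which a pair overlaps by 1 base, and the other 3 windows held 0. 32.7% of 32851 RefSeq windows of this length held at least 1. The spaced STAT motifs TTCNNNGAA (7.02% of all windows) and TTCNNNNGAA (5.85%), the E-box CACGTG (6.02%), the CRE TGACGTCA (1.55%) and the ETS motif CCGGAAG (6.91%) were searched on both strands and were in none of the 10 windows. A window without these letters says nothing about binding elsewhere, and which start was used cannot be read from gene counts.

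St6gal1 (Entrez 20440, chr16:23224729-23360350), the enzyme that makes the alpha2,6 linkage bound by GL7 and by the B cell lectin CD22, was abundant in every library. Its level was 707, 601 and 525 CPM in WT and 808, 822 and 678 CPM in Il21r-/- on days 7, 10 and 14. On each day the Il21r-/- library was higher, at 114, 137 and 129% of WT, while the ranges over days overlapped, since WT on day 7 lay above Il21r-/- on day 14. The log2 difference over the 3 days was -0.34 (SE 0.101, 95% interval -0.57 to -0.11) and did not pass the threshold (adjusted p = 0.0935). With day as a replicate block, which compares the genotypes within days, it was -0.34 (SE 0.075) and passed (adjusted p = 0.00125). Over 12 alternatives 4 passed, with adjusted p-values from 0.00125 to 0.484. The effect of day was -0.05 (SE 0.018) per day (adjusted p = 0.144) and passed under 2 of 12 alternatives, namely with day as a factor (day 14 against day 7, adjusted p = 0.00613) and without Il21r-/- on day 10 (adjusted p = 0.0359), the highest adjusted p being 0.678. In GENCODE, which was not the annotation used for counting, St6gal1 shared 200 of its 4916 exon bases with BC106179 on the opposite strand.

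St3gal1 (Entrez 20442, chr15:67102875-67176946), which caps the O-glycan core with alpha2,3-linked sialic acid and removes the binding site of peanut agglutinin, had values ordered in the same way. It was at 22.6, 21.3 and 19.9 CPM in WT and at 30.5, 32.6 and 22.5 CPM in Il21r-/-. The Il21r-/- library was higher on each day, but WT on day 7 lay just above Il21r-/- on day 14, so that the ranges overlapped. The log2 difference was -0.42 (SE 0.130, adjusted p = 0.106) in the main fit and -0.41 (SE 0.109, adjusted p = 0.00558) with the replicate block, the only alternative of 12 in which it passed over the 3 days (adjusted p up to 0.321). On day 10 alone it was -0.62 (SE 0.260, adjusted p = 0.265), and it passed with the replicate block only (adjusted p = 0.0321, over a range up to 1). St3gal2 (Entrez 20444, chr8:110919743-110974058) was at 25.4, 28.2 and 24.4 CPM in WT and at 25.5, 34.2 and 23.9 CPM in Il21r-/-. Only the day 10 libraries stood apart, and the difference over the 3 days was -0.10 (95% interval -0.45 to 0.25; adjusted p = 0.763).

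Activation and removal of sialic acid were represented by Cmas and by the sialidase genes, of which none passed a test. Cmas (Entrez 12764, chr6:142756686-142775714) was at 42.4, 42.6 and 40.2 CPM in WT and at 46.2, 38.7 and 34.4 CPM in Il21r-/-, with a genotype difference of 0.08 (95% interval -0.17 to 0.33; adjusted p = 0.729). Neu1 (Entrez 18010, chr17:34931253-34937297) was at 50.1, 48.3 and 46.9 CPM in WT and at 48.9, 39.6 and 38.5 CPM in Il21r-/-. WT was higher on each day, with overlapping ranges, and the difference of 0.20 (95% interval -0.04 to 0.44; adjusted p = 0.331) did not pass, nor did it with the replicate block (adjusted p = 0.134). Neu3 (Entrez 50877, chr7:99811434-99828457) was at 4.03, 3.17 and 3.09 CPM in WT and at 3.27, 3.09 and 2.89 CPM in Il21r-/-, from 66 to 110 counts in a library, with a difference of 0.15 (95% interval -0.27 to 0.57; adjusted p = 0.695). The intervals of Cmas and Neu1 left room for differences of up to 0.33 and 0.44 on the log2 scale.

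Counted together, 1 of the 8 genes was differentially expressed between the genotypes over the 3 days, St3gal6, beside 5.92% of the 11005 genes tested (4.52% higher in Il21r-/-). With day as a replicate block it was 3 of 8 (St3gal6, St6gal1 and St3gal1, all higher in Il21r-/-), beside 22.9% of all genes. By single day, 1 of 8 passed on day 7 (1.07% of all genes), 0 on day 10 (3.1%) and 1 on day 14 (3.28%). With the replicate block 2 passed on day 10, St3gal1 and St3gal6, and the share over all genes in that fit was not computed. Of the 0 on day 10 in edgeR's likelihood ratio test, 3 had an unadjusted p under 0.05, namely St6gal1, St3gal1 and St3gal6, and DESeq2 also made 0 calls. The median log2 difference over the 3 days was -0.07 for the 8 genes and -0.01 for all genes tested. St3gal6 alone had all 3 Il21r-/- libraries above all 3 WT libraries, as did 10% of all genes.

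Over time, 2 of the 8 genes, Cmah and St3gal6, fell with day and 0 rose, beside 4.43% of all genes called in either direction and 3.36% called lower on later days. Which immunization or sort stood behind each day is not given, so an effect of day and of such a batch cannot be told apart. All 8 slopes were below 0, with a median of -0.04 per day against 6e-04 for all genes tested. 4 genes, Cmah, St3gal6, Neu1 and Neu3, were lower on each later day in both genotypes, as were 11.2% of all genes. For the difference in day trend between the genotypes the quasi-likelihood test called 0 of the 8, with 0 at an unadjusted p under 0.05, and 0% of all genes; DESeq2 also called 0.

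The wider pathway was read from 58 further genes of sialic acid synthesis, transfer and removal, acceptor glycan synthesis and sialic acid binding lectins, of which 36 were abundant enough to be tested and 9 had no count. 3 of the 36 were differentially expressed between the genotypes over the 3 days, all higher in Il21r-/-, beside the 5.92% of all genes called and the 4.52% called higher in Il21r-/-. St8sia6, an alpha2,8-sialyltransferase, was at 12.7, 9.47 and 7.45 CPM in WT and at 25.0, 32.2 and 28.3 CPM in Il21r-/-, a difference of -1.55 (SE 0.183, adjusted p = 0.00271) that held under all 12 alternatives (adjusted p up to 0.0362). Its libraries did not overlap between the genotypes, and it also passed on day 10 (-1.76, adjusted p = 8.85e-05) and day 14 (-1.93, adjusted p = 1.5e-05).

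B4galt1, which adds the galactose that sialic acid is attached to, was at 36.6, 32.1 and 24.6 CPM in WT and at 44.3, 49.8 and 44.5 CPM in Il21r-/-. Its ranges did not overlap between the genotypes, and the difference was -0.59 (SE 0.130, adjusted p = 0.035). It also passed on day 14 (-0.85, SE 0.260, adjusted p = 0.036), a call kept under 7 of 12 alternatives, with adjusted p-values from 0.000609 to 0.709, and lost with the DESeq2 Wald test, with all genes kept and without any single one of the WT libraries. Siglecg, an inhibitory B cell receptor for sialic acid, was at 127.9, 100.9 and 90.8 CPM in WT and at 158.5, 151.4 and 133.0 CPM in Il21r-/-, a difference of -0.48 (SE 0.097, adjusted p = 0.0244). Its ranges did not overlap either. Each of these 2 genes passed over the 3 days under 8 of 12 alternatives and failed under 4 that left out 1 library, with adjusted p-values up to 0.3 for B4galt1 (without WT on day 14) and 0.227 for Siglecg (without WT on day 14). Cd22, the other B cell lectin tested, was at 401 to 427 CPM in WT and at 422 to 553 CPM in Il21r-/- and did not pass. With the replicate block the count over the 36 genes was 10, of which 3 were higher in WT and 7 in Il21r-/-, beside 22.9% of all genes.

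**Figure D4:**
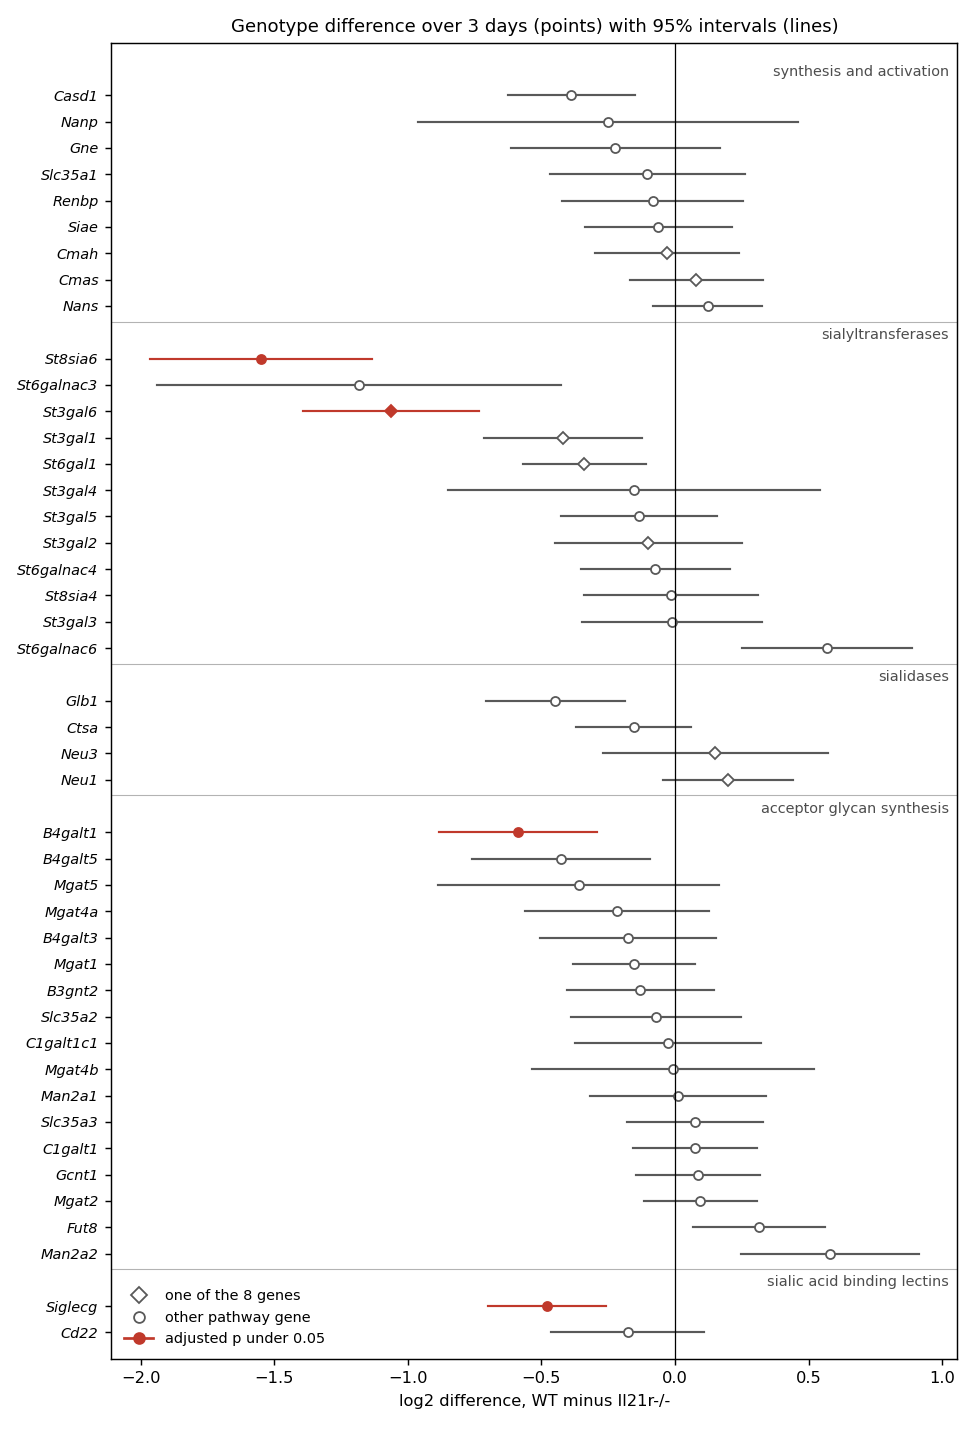
Log2 difference over the 3 days, WT minus Il21r-/-, with its 95% interval for the 44 pathway genes tested, grouped by step. Diamonds are the 8 genes described above, and red marks an adjusted p under 0.05, reached by St8sia6, St3gal6, B4galt1 and Siglecg, all to the left of 0.

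6 of the 36 further genes fell with day and 0 rose, beside 4.43% of all genes called and 3.36% called lower on later days. All 6 calls were lost without the day 7 or the day 14 library of either genotype. They passed under 7 (Glb1 and Gcnt1) or 8 (St3gal5, St8sia4, Ctsa and Mgat1) of 12 alternatives, with adjusted p-values up to 0.452, reached by Glb1 without WT on day 14. St3gal5, the GM3 ganglioside synthase, was at 18.1, 11.9 and 9.18 CPM in WT and at 19.0, 13.6 and 10.2 CPM in Il21r-/-, a 1.91-fold decrease over the 7 days (adjusted p = 0.0181). The polysialyltransferase St8sia4 fell 1.73-fold (adjusted p = 0.0411), and its WT level was 91.8 CPM on day 10 and 96.2 CPM on day 14. Ctsa and Glb1, which form a lysosomal complex with the NEU1 sialidase, changed by -0.84 (adjusted p = 0.0104) and -0.65 (adjusted p = 0.0417) on the log2 scale over the 7 days, while Neu1 itself differed by -0.21 (95% interval -0.51 to 0.08) and did not pass. Mgat1, which starts complex N-glycans, fell 1.63-fold (adjusted p = 0.0198) and Gcnt1, which branches O-glycans, 1.49-fold (adjusted p = 0.0412). Among the 9 tested genes of sialic acid synthesis and activation, Cmah was the one called for day, and 0 of 9 were called for genotype by the quasi-likelihood test (1 with an unadjusted p under 0.05, and 1, Casd1, with the replicate block). The median slope of the 36 genes was -0.04 per day.

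**Figure D5:**
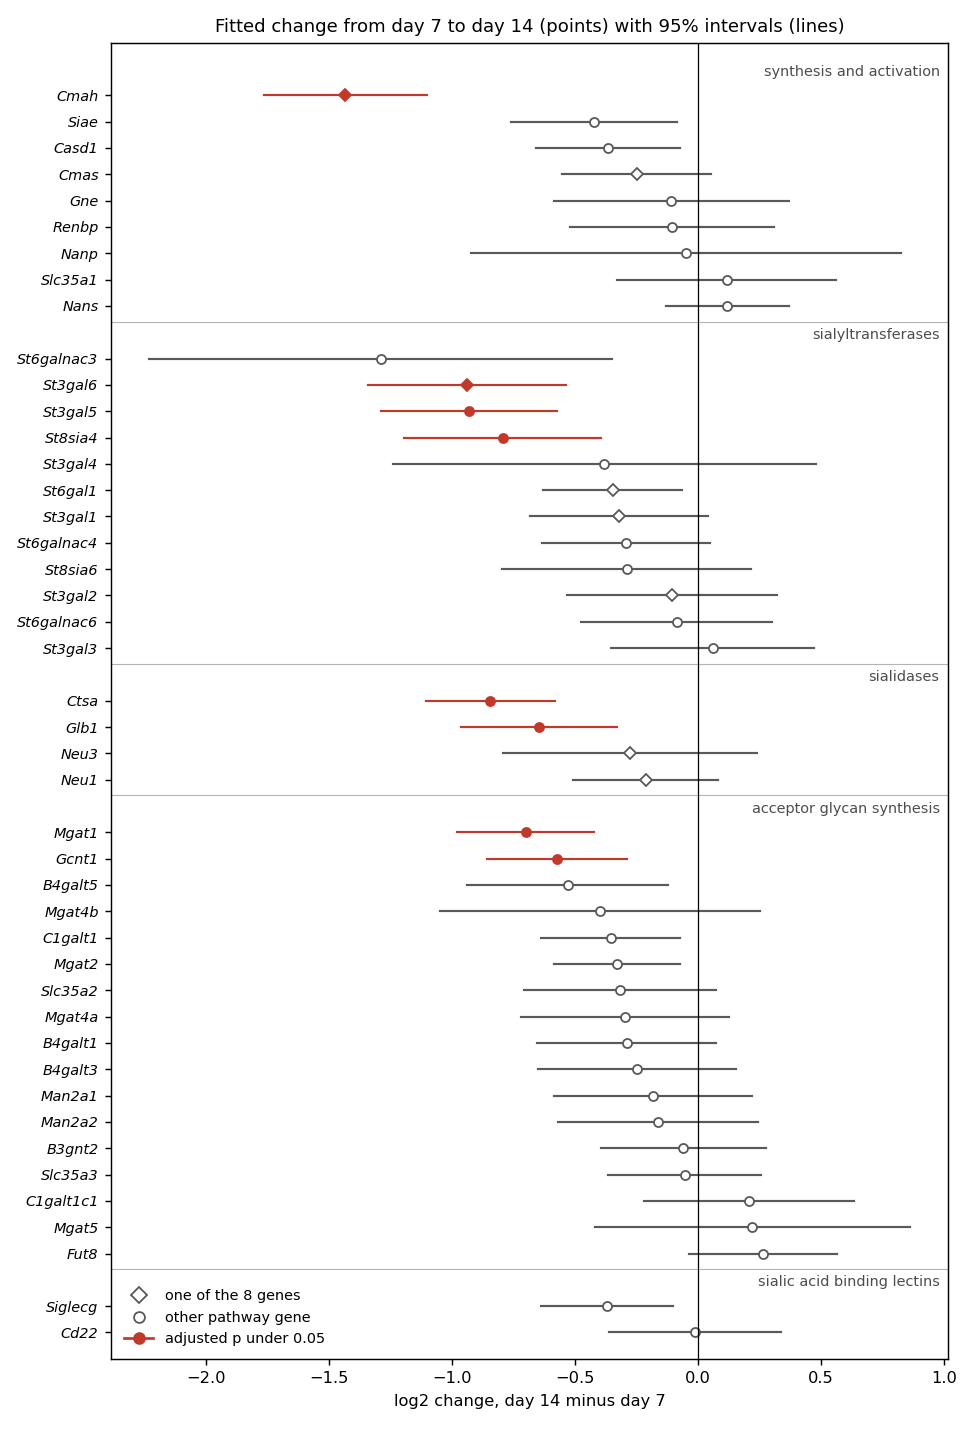
Fitted log2 change from day 7 to day 14 with its 95% interval for the same 44 genes, grouped by step. Red marks an adjusted p under 0.05. Cmah, at -1.43, lay farthest from 0, and the 8 red genes all lay to the left of 0.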

How the data were processed

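Per the methods, the authors mapped the reads to mm10 with Rsubread, assigned them to the RefSeq gene models that come with featureCounts, summed technical replicates and deposited raw counts for each gene. The kit (TruSeq) does not mark strand, and the strand and multi-mapping settings are not given in the sources used here. The table and the single-library files held the same counts. Entrez identifiers received symbols from RefSeq (25275 of 27179) or GENCODE (18), and those without one took 1.57 to 2.24% of a library's counts. By the rules in the study's methods, genes with an average log2 CPM under 0, Ig variable genes, Xist and Y-linked genes were removed, which left 11005. The study reports a slightly larger number of genes after its filter, so the 2 gene sets were not identical. CPM (counts scaled to library size) and RPKM were computed here from the counts on the genes tested with TMM factors, and RPKM used the gene lengths of the table.

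With edgeR 4.0.16 (R 4.3.3), robust dispersions were estimated from an additive model of genotype and linear day, with 3 residual degrees of freedom and a biological coefficient of variation of 13.1%. Quasi-likelihood tests were used for the genotype effect over 3 days, for the linear effect of day and for their interaction. Single days, 1 library against 1, were tested by likelihood ratio with a mean per day and borrow their spread from the whole fit. Benjamini-Hochberg adjustment ran over all 11005 genes, with a threshold of 0.05. Intervals are 95% intervals. A SD over days holds the effect of day, and p-values measure the spread between these libraries only. The script was tested on simulated data with 200 changed genes.

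An alternative fit took the 2 libraries of a day as a pair. After genotype means were subtracted, they correlated across genes (Pearson's r of 0.64 for day 7, of 0.41 for day 10 and of 0.64 for day 14). These deviations hold the effect of day, so the correlation cannot show a pairing beyond the shared day. The fit with day as a factor is called the replicate block. Other alternatives were DESeq2 1.42.0 (size factors or Wald test), other filters on low counts, the likelihood ratio test, a linear day term on single days, and leaving out each library in turn. On single days the DESeq2 Wald test also used a linear day term in place of a mean per day. Named genes were the 8, pathway genes past the threshold, the 5 genes closest in pattern to Cmah, Il21r and the marker lists. The 8 genes, the gene lists and the tests were chosen with earlier results of these data known.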

Additional observations from a re-analysis of the deposited data

How the results depend on the processing

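Of the 8 genes, the number called for genotype over 3 days was 1, against 3 with the replicate block, 2 with the likelihood ratio test, 2 with the DESeq2 Wald test and 1 to 2 when each library was left out. On day 7 it was 1, against 0 with DESeq2 and 0 to 1 without single libraries. On day 10 it was 0, against 2 with the replicate block, 1 with a linear day term and 0 to 1 without single libraries. For the linear effect of day it was 2, against 3 with day as a factor (St6gal1 added) and 0 to 3 without single libraries (3 without Il21r-/- of day 10, 0 without WT of day 7 or of day 14, 1 without Il21r-/- of day 7). The 36 further pathway genes gave 3 calls for genotype, against 5 with DESeq2 size factors, 6 with all genes kept, 10 with the replicate block, 8 with the likelihood ratio test, 6 with the DESeq2 Wald test and 1 to 9 without single libraries (9 without Il21r-/- of day 10). They gave 6 calls for day, against 14 with day as a factor and 0 to 13 without single libraries (13 without Il21r-/- of day 10). Outside the main fit, the share over all genes was computed only for genotype over 3 days with the replicate block (22.9%). The other counts have no such share beside them and cannot be read as particular to these genes. The cause of the shifts between settings was not tested.

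Signs turned only for differences that were not called. For St3gal2 the difference on day 7 was 0.0011 with DESeq2 size factors and 0.0095 with all genes kept, that on day 10 was 0.0095 with a linear day term and 0.0155 with the Wald test, and that on day 14 was -0.1139 and -0.108 under the same settings. Leaving out single libraries gave -0.1468 to 0.0336 for Cmah over 3 days, -0.2102 to 0.0723 for St3gal2 over 3 days and -0.0384 to 0.0127 per day for St3gal2. The difference in day trend, per day, spanned -0.1079 to 0.0033 for Cmah, -0.0574 to 0.0034 for St6gal1, -0.047 to 0.1027 for St3gal1, -0.1398 to 0.1136 for St3gal2, -0.1456 to 0.0352 for St3gal6, -0.0084 to 0.0992 for Neu1 and -0.0897 to 0.0241 for Neu3. In all, 538 of 576 recomputed values of the 8 genes kept their direction and side of the threshold. This tally includes differences that were not called under either setting. On single days, a library was left out of the estimate of the spread only, so the direction could not change there. The replicate block changed the call of St6gal1 and St3gal1 over 3 days and of St3gal1 and St3gal6 on day 10, and of no other of the 8 genes. With 1 library per genotype and day, single-day differences have no replicate of their own, and Neu3, at 66 to 110 counts, was limited by depth.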
